A study of Mus musculus with 2 samples.

Results

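The genes described here are 7 Wnt ligands (*Wnt2b*, *Wnt3*, *Wnt4*, *Wnt5a*, *Wnt6*, *Wnt7b* and *Wnt8b*) and 3 R-spondins (*Rspo1*, *Rspo2* and *Rspo3*), chosen by name, and all 10 were found among the 27998 genes counted in both libraries. They were followed across the cell classes of the early mouse eye region, and between an embryo of each genotype. Single cells came from the ocular area of C57BL/6J embryos at 26 somites (E9.25). One library, labelled WT, held the pair of optic areas of a single wild-type embryo, and the other, labelled KO, held those of a single *Mab21l1*-null embryo. The null allele is carried in every cell of the embryo, and *Mab21l1* encodes a MAB21-domain protein needed for growth of the lens placode (LP). Both libraries were made with the 10x Chromium 3′ v3 kit, which tags each captured transcript end with a unique molecular identifier (UMI), so a count is one molecule and is not divided by gene length.

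Wnt ligands are secreted, lipid-modified proteins that bind Frizzled receptors together with Lrp5 or Lrp6 (the β-catenin pathway, which acts through Tcf and Lef factors) or with Ror and Ryk receptors. R-spondins do not start the signal on their own. They bind Lgr receptors and take the ligases Znrf3 and Rnf43 off the cell surface, which leaves more Frizzled in place. In the early eye, β-catenin signalling is known to favour pigment epithelium over neural retina and to be kept low where the lens forms, and the surface ectoderm (SE) around the lens and the mesenchyme beneath it are known sources of ligand.

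The filter of the study's methods left 1680 cells with 41880035 UMIs (median 21037) under the WT label and 2404 cells with 52430844 UMIs (median 18135) under the KO label. The libraries shared 15 barcode sequences, and Scrublet called 23 and 31 of the cells doublets, which were not removed. *Mab21l1* RNA, which checks the labels, was present in both, with 849 UMIs, or 20.3 per 1000000 UMIs (CPM), under the WT label and 1706 UMIs, or 32.5 CPM, under the KO label. In ectoderm-like cells it was lower under the KO label (85.5 against 38.6 CPM) and in optic vesicle-like cells it was higher (37.7 against 65.8 CPM). Every direction between the libraries below therefore rests on their labels. As each genotype is 1 embryo, nothing measures the spread between embryos, and no test of any difference could be run. Brackets give exact 95% intervals of counting error only, Poisson for a level, binomial (Clopper-Pearson) for a share and conditional binomial for a ratio of 2 levels.

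Cells were placed in classes by marker genes, without use of any member, and each class is named by the markers it resembles. The LP-like class held 28 and 15 cells (WT and KO, here and below), the SE-like class 27 and 24, the pigment epithelium-like class 144 and 178, the neural retina-like class 226 and 396, the optic stalk-like class 33 and 55, the forebrain-like class 127 and 165, Foxc-high mesenchyme 112 and 185, and Alx-high mesenchyme 237 and 377. Of the markers of LP 4 of 5 were at least 2-fold above the other ectoderm-like cells in both libraries, and *Foxe3* was not. For SE this held for 3 of 6 markers under the WT label and 4 of 6 under the KO label, with *Dlx3*, *Grhl3* and, under the WT label, *Tfap2c* those that were not, and for neural retina for 3 of 4, all but *Six6*. For forebrain it held for 6 of 8 and 7 of 8 markers, and for Foxc-high mesenchyme for 2 of 3 (not *Foxc1*) under the WT label and 3 of 3 under the KO label. Alx-high mesenchyme is a range of a score rather than a type: 0 of 3 of its markers under the WT label and 2 of 3 under the KO label were 2-fold above the other mesenchyme-like cells. Of all mesenchyme-like cells 213 of 1127 lay within 0.05 of the score margin between its classes. Of optic vesicle-like cells 225 of 1296 did, and of ectoderm-like cells 7 of 101. Another 102 and 162 optic vesicle-like cells and 101 and 115 mesenchyme-like cells joined none of the classes within their family. The gate left 23.0% and 22% of kept cells in no class.

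Of the 10 members, *Wnt6* and *Wnt4* had the highest levels in ectoderm-like cells. The bases just upstream of their annotated starts are shown because both were found in SE-like cells, and 2 of the 6 markers of that class, *Tfap2b* and *Tfap2c*, encode AP-2 factors, whose consensus is GCCNNNGGC (*Tfap2c* was not 2-fold above the other ectoderm-like cells under the WT label). The sequences come from RefSeq promoter windows on GRCm38.p6, which exist for 6 of the 10 members among 32851 windows, and stop at the first annotated exon. They are read 5′ to 3′ on the plus strand, in lower case with consensus matches in capitals. The *Wnt6* window spans chr1:74771642-74771891 and the *Wnt4* window chr4:137277385-137277488.
Wnt6: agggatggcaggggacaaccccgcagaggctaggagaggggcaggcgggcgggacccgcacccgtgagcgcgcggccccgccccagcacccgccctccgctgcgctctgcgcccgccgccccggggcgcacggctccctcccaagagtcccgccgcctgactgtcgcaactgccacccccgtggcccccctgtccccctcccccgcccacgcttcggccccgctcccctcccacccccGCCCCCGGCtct
Wnt4: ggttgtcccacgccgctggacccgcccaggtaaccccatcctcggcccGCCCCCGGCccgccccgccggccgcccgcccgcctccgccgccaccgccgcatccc
Each window held 1 match. The consensus reads the same on both strands, and it was present in 13.7% of all windows over the 250 bases searched for *Wnt6* and in 4.69% over the 104 bases searched for *Wnt4*. The TCF core CTTTGA, searched on both strands, was in neither, and is in 13.8% and 6.51% of windows of those lengths. The 225 bases before *Wnt3* held 2 AP-2 matches, a sequence present in 12.1% of windows of that length, and the 250 bases before *Rspo1* and before *Wnt8b* held no match to either. A match of this kind is a description of letters, not a binding site.

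*Wnt6* (chromosome 1 of GRCm38, 74771892 to 74785322) was almost all in SE-like cells. Under the WT label these held 111 of its 122 UMIs (91.0% [84.4, 95.4]) and under the KO label 105 of 122 (86.1% [78.6, 91.7]), although they gave only 1.15% and 0.80% of all UMIs. Its level there was 230 CPM [189, 277] and 250 CPM [205, 303]. Next in order came LP-like cells, with 5 UMIs (8.49 CPM) and 1 UMI (3.30 CPM). The SE-like level was 27.1 [11.3, 85.1] times the LP-like one under the WT label and 75.7 [13.3, 3020] times under the KO label. A UMI of *Wnt6* was found in 23 of 27 and 19 of 24 SE-like cells, 85.2% [66.3, 95.8] and 79.2% [57.8, 92.9], at median depths of 16130 and 16088.5 UMIs per cell. Thinned to 8000 UMIs per cell, the shares were 70.4% and 65.2%. No erythrocyte-like cell, of 38 and 52, held one at median depths of 34642.5 and 33621.5 UMIs, and no member was found in more than 1 (WT) or 2 (KO) erythrocyte-like cells.

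*Wnt4* (chromosome 4, 137277489 to 137299726), a ligand known for its part in kidney and gonad epithelia, had the same 2 leading classes at a lower level. Of its UMIs 88 of 120 (182 CPM [146, 225], WT) and 34 of 76 (81.0 CPM [56.1, 113], KO) were in SE-like cells. The LP-like class held 4 and 3 UMIs (6.79 and 9.91 CPM), so SE-like levels were 26.8 [10.1, 101] and 8.18 [2.57, 41.6] times higher. The shares of SE-like cells with a UMI were 74.1% and 75.0%, and after thinning 59.3% and 34.8%. *Wnt4* and *Wnt6* were found together in 18 of 27 and 15 of 24 SE-like cells, against 17 and 14.2 cells from the product of their shares. These overlaps are at about the rate that their frequencies give. As each gene was found in most SE-like cells, the overlap cannot show whether they mark the same cells. Outside ectoderm *Wnt4* was sparse, with 12 and 13 UMIs over all optic vesicle-like cells.

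**Figure D1:**
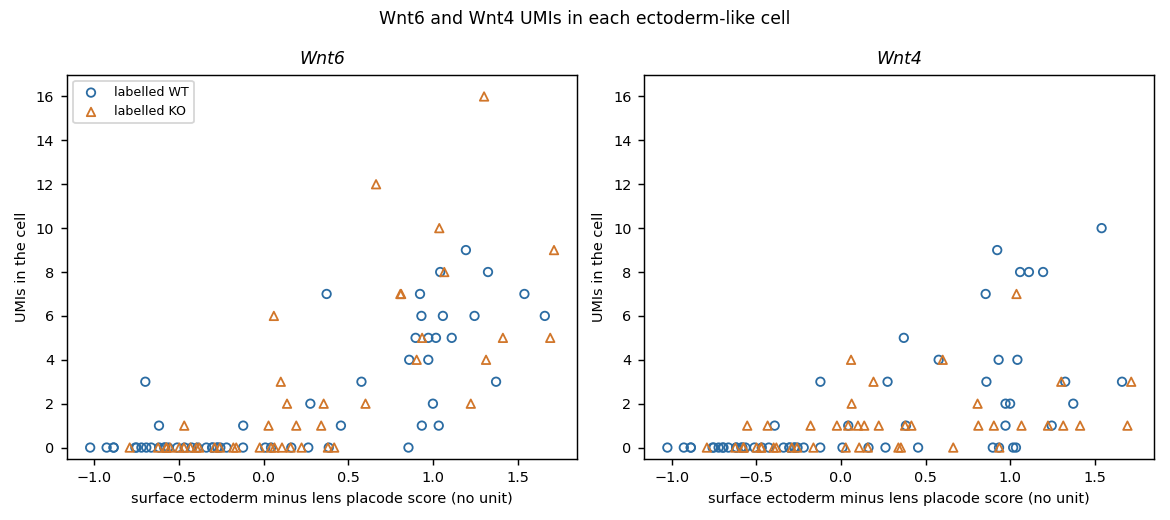
UMIs of *Wnt6* (left) and *Wnt4* (right) in each of the 101 ectoderm-like cells, against the SE marker score minus the LP marker score of the cell (no unit), with circles for the library labelled WT and triangles for the library labelled KO. Cells with negative scores hold few UMIs of either gene, and on the right-hand side of the *Wnt4* panel most triangles lie below the highest circles.

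Between the libraries the 2 ectodermal ligands did not move together. *Wnt4* in SE-like cells stood at 0.444 [0.290, 0.667] times its WT level in the library labelled KO, while *Wnt6* stood at 1.09 [0.825, 1.43]. Without the cell with the most UMIs in each library (10 and 7 UMIs of *Wnt4*, 9 and 16 of *Wnt6*) the ratios were 0.413 [0.256, 0.647] and 1.01 [0.748, 1.35]. The SE-like cells themselves differed in their markers: the median of SE marker UMIs per cell was 10 under the WT label and 7.5 under the KO label, and that of LP marker UMIs was 2 and 4. With a stricter margin between classes the ratios were 0.480 for *Wnt4* and 1.30 for *Wnt6*. The count of SE-like cells depends on how ectoderm is divided: when the ectoderm-like cluster was split by sub-clustering into 33 and 17 SE-like cells, the *Wnt4* ratio was 0.692 and that of *Wnt6* was 1.65, so *Wnt4* was then within 1.5-fold and *Wnt6* past it. Over all ectoderm-like cells (57 and 44), where no division is needed, *Wnt4* went from 93 to 45 UMIs (82.0 to 56.0 CPM, ratio 0.683 [0.468, 0.986]) and *Wnt6* from 116 to 113 (102 to 141 CPM, ratio 1.38 [1.05, 1.80]). The share of *Wnt4* among the UMIs of both, a measure chosen after these values were seen that needs no scaling, was 44.5% [37.6, 51.5] of 209 under the WT label and 28.5% [21.6, 36.2] of 158 under the KO label. In SE-like cells alone it was 44.2% [37.2, 51.4] and 24.5% [17.6, 32.5]. By the marker gate the mix of ectoderm also differed. LP-like cells were 28 of 57 ectoderm-like cells under the WT label and 15 of 44 under the KO label. Sub-clustering gave 26 and 31 LP-like cells, so the direction of this difference depends on how ectoderm is divided. The part of this mix in the values over all ectoderm-like cells was not tested.

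Among all genes, differences of this size were common in classes of so few cells. A gene was called here when it had at least 20 UMIs over both libraries in a class and its levels differed by 1.5-fold or more. In SE-like cells 20.8% of 5491 genes were called, and of the 2 members counted 1 was, *Wnt4*, lower in the library labelled KO. Over all ectoderm-like cells 18.3% of 7769 genes were called, and 0 of the 3 members counted (*Wnt4*, *Wnt5a* and *Wnt6*) were. *Wnt7b*, a ligand of the forebrain and of epithelia, had 3 and 12 UMIs in ectoderm-like cells (ratio 5.65 [1.52, 31.2]), too few to be counted, with 0 and 4 of them in SE-like cells. *Wnt3* had only 6 and 3 UMIs in all kept cells. Its 3 UMIs in SE-like cells under the WT label are the most in any class, and under the KO label 0 of 24 such cells held one, which allows a level of up to 7.15 CPM. No order of classes can be read from it.

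In the optic vesicle the ligands and R-spondins divided along its regions. *Wnt2b*, known as a ligand of the dorsal eye and ciliary margin, was found in pigment epithelium-like cells, with 18 of 24 UMIs (4.42 CPM [2.62, 6.98]) and 16 of 24 (3.43 CPM [1.96, 5.57]). Neural retina-like cells held 1 and 2 UMIs, so that the pigment epithelium-like level was 30.7 [4.85, 1281] and 18.5 [4.36, 166] times higher. It was a rare transcript even there: 11.8% and 7.87% of cells had a UMI, and 2.08% and 2.40% after thinning. *Wnt5a*, the main ligand of the Ror pathway, was also higher in pigment epithelium-like than in neural retina-like cells, at 9.81 against 4.31 CPM under the WT label (2.28 [1.38, 3.79] times) and 11.6 against 4.72 CPM under the KO label (2.45 [1.64, 3.67] times).

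*Rspo3* (chromosome 10, 29452416 to 29535867 on the minus strand) was the leading R-spondin of the optic vesicle. Pigment epithelium-like cells had 103 UMIs, 25.3 CPM [20.6, 30.6], under the WT label and 176 UMIs, 37.8 CPM [32.4, 43.8], under the KO label. Optic stalk-like cells followed with 15 UMIs (14.0 CPM) and 17 UMIs (12.4 CPM), and neural retina-like cells had 3.74 and 2.04 CPM. Pigment epithelium-like exceeded neural retina-like levels by 6.76 [4.36, 10.8] and 18.5 [11.9, 30.4] times, and exceeded optic stalk-like levels by 1.80 [1.04, 3.34] and 3.06 [1.85, 5.36] times. In a joint clustering of both libraries the pigment epithelium-like and neural retina-like levels lay closer. The pigment epithelium-like cluster had *Rspo3* at 24.9 and 33.7 CPM and the neural retina-like cluster at 7.44 and 5.82 CPM. A UMI of *Rspo3* was in 36.1% and 38.2% of pigment epithelium-like cells, and in 14.6% and 21% after thinning. *Rspo2*, its close relative, was sparse, with 12 UMIs (2.94 CPM) and 17 UMIs (3.65 CPM) in these cells. The 2 UMIs in neural crest-like cells of each library give it 3.18 and 3.11 CPM there, so these classes cannot be ranked. *Wnt2b* UMIs were found in 10 and 8 of the pigment epithelium-like cells that held *Rspo3*, against 6.14 and 5.35 cells from the product of their shares. These sums are small, and deeper cells raise both counts.

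*Wnt7b* followed another axis. Forebrain-like cells had 236 UMIs, 82.4 CPM [72.2, 93.6], and 253 UMIs, 73.0 CPM [64.3, 82.6], and optic stalk-like cells had 65.5 CPM [51.0, 82.7] and 64.0 CPM [51.3, 78.8]. These classes did not differ beyond counting error, at ratios of 1.26 [0.960, 1.67] and 1.14 [0.892, 1.47]. Then came pigment epithelium-like cells at 24.3 and 29.0 CPM and neural retina-like cells at 16.1 and 16.6 CPM, a step of 1.51 [1.14, 2.0] and 1.75 [1.39, 2.2] times. By the marker gate, neural retina-like cells thus had the lowest level of the forebrain-like class and the optic vesicle classes in both libraries. This order depends on how the optic vesicle is divided. In the joint clustering the neural retina-like cluster had *Wnt7b* at 43.4 and 38.3 CPM. That was above the pigment epithelium-like cluster, at 27.0 and 25.1 CPM. Cells in no class held 36.9% and 31.0% of all *Wnt7b* UMIs, at 43.5 and 37.3 CPM, so the classes do not cover all of its expression. *Wnt8b*, a ligand of the forebrain midline, had its highest level in forebrain-like cells, with 52 UMIs (18.2 CPM [13.6, 23.8]) and 44 UMIs (12.7 CPM [9.23, 17]). Forebrain-like levels were 8.43 [4.67, 16.1] and 15.2 [7.35, 35.5] times those of neural retina-like cells, which had 15 and 9 UMIs. *Wnt8b* and *Wnt7b* were found in the same forebrain-like cells 19 and 22 times, against 20.3 and 20.6 from the product of their shares.

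**Figure D2:**
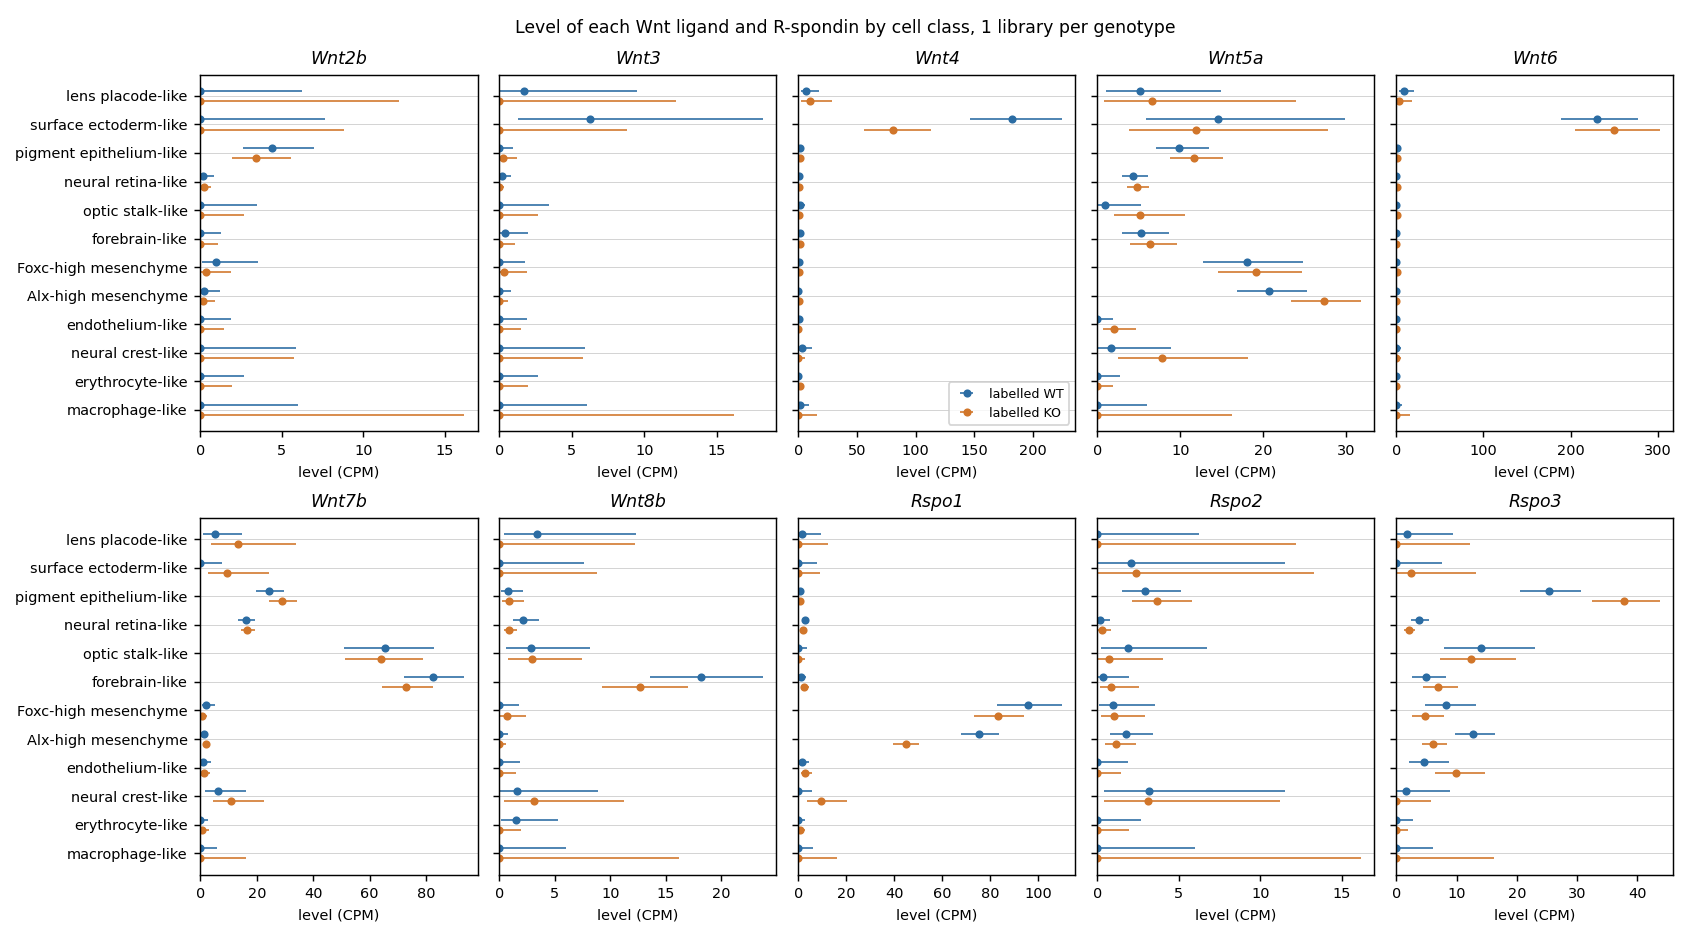
Level of each member (CPM, linear axes that differ between panels) in 12 cell classes, with a blue point for the library labelled WT and an orange point for the library labelled KO; bars are exact 95% Poisson intervals. *Wnt6* and *Wnt4* peak in SE-like cells, *Rspo1* in both mesenchyme classes, *Rspo3* in pigment epithelium-like cells, and *Wnt7b* in forebrain-like and optic stalk-like cells.

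Between the libraries, of 8 members counted over all optic vesicle-like cells 2 were called, against 5.98% of 12742 genes: *Wnt2b* with 20 and 18 UMIs (ratio 0.648 [0.323, 1.29]) and *Wnt8b* with 35 and 29 UMIs (ratio 0.596 [0.352, 1.0]), both lower in the library labelled KO with intervals that reach 1. Pigment epithelium-like cells made up 144 of 505 and 178 of 791 of these cells. Within pigment epithelium-like cells *Wnt2b* had a ratio of 0.777 [0.371, 1.62], and 0 of 5 members counted were called, where 9.77% of 10680 genes were. *Rspo3* came nearest there, at 1.49 [1.17, 1.92] times its WT level and 1.52 [1.17, 1.97] without the cell richest in it. In neural retina-like cells its ratio was in the other direction, at 0.545 [0.294, 1.0] on 26 and 22 UMIs. *Wnt8b* was also lower there, with 15 and 9 UMIs, 2.16 and 0.833 CPM, a ratio of 0.386 [0.149, 0.943]. No share of all genes called was computed for neural retina-like cells. In a joint clustering the neural retina-like cluster (378 and 620 cells) had *Rspo3* at 0.781 [0.585, 1.05] on 94 and 102 UMIs. *Wnt8b* was at 0.736 [0.477, 1.14] on 45 and 46 UMIs in that cluster. Both of these ratios are within 1.5-fold, and their intervals hold 1. The abundant *Wnt7b* was at 0.966 [0.852, 1.10] over the optic vesicle-like cells. Among forebrain-like cells 0 of 4 members counted were called, against 9.91% of 10037 genes, and *Wnt8b* stood at 0.699 [0.457, 1.07]. In endothelium-like cells *Rspo3*, which is known to act in vessel growth, had 9 and 25 UMIs, 4.59 and 9.98 CPM, a ratio of 2.17 [0.981, 5.29].

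The mesenchyme was the site of *Rspo1* and *Wnt5a*. *Rspo1* (chromosome 4, 124986430 to 125009099) had 705 of its 865 UMIs there (81.5% [78.8, 84.0]) under the WT label and 628 of 839 (74.9% [71.8, 77.8]) under the KO label. In Foxc-high mesenchyme it reached 95.7 CPM [82.8, 110] and 83.1 CPM [73.0, 94.1], and in Alx-high mesenchyme 75.3 CPM [67.6, 83.6] and 44.8 CPM [39.6, 50.4]. Foxc-high cells exceeded Alx-high cells 1.27 [1.06, 1.52] and 1.86 [1.56, 2.21] times. Mesenchyme-like cells in neither class had 78.3 and 55.4 CPM. The mesenchyme-like level was 56.1 [36.7, 90.1] and 43.2 [29.6, 65.6] times the optic vesicle-like level, and SE-like cells held 0 UMIs in both libraries, which allows levels of up to 6.22 and 7.15 CPM. Pigment epithelium-like cells, the leading class of *Rspo3*, held only 2 and 3 UMIs of *Rspo1*. The third R-spondin, *Rspo2*, had 11 and 12 UMIs in mesenchyme-like cells.

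*Wnt5a* (chromosome 14, 28504750 to 28527448) was spread more evenly. Alx-high mesenchyme had 20.7 CPM [16.8, 25.3] and 27.3 CPM [23.3, 31.8], and Foxc-high mesenchyme 18.0 and 19.1 CPM. These neighbours differed 1.15 [0.781, 1.73] times under the WT label, within counting error, and 1.43 [1.05, 1.97] times under the KO label. Mesenchyme-like cells exceeded optic vesicle-like cells by 3.93 [3.01, 5.16] and 3.71 [3.01, 4.60] times. SE-like cells had 7 UMIs (14.5 CPM) and 5 UMIs (11.9 CPM). In mesenchyme-like cells *Wnt5a* and *Rspo1* were found together in 83 of 450 and 103 of 677 cells, against 82.5 and 100 from the product of their shares.

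Between the libraries 2 of the 5 members counted in mesenchyme-like cells were called, against 7.28% of 11659 genes. *Rspo3* was lower in the library labelled KO, with 90 and 60 UMIs (10.3 CPM [8.29, 12.7] and 5.45 CPM [4.16, 7.01], ratio 0.528 [0.375, 0.741]). *Wnt7b*, at 10 and 20 UMIs, was higher (ratio 1.58 [0.708, 3.79]), and without called doublets its ratio was 0.805, so that this call turned around. *Rspo1* was lower by less than 1.5-fold, at 80.8 CPM [74.9, 87.0] and 57.0 CPM [52.7, 61.7], ratio 0.706 [0.633, 0.787]. It was found in 61.6% and 47.3% of mesenchyme-like cells, whose median depths were 19201 and 15627 UMIs, and in 40.9% and 30.4% after thinning. For *Rspo3* these shares were 12.4% and 7.53%, and 6.89% and 3.63% after thinning. *Wnt5a* stood at 1.15 [0.946, 1.39], with 29.8% and 31.3% of cells and 14.4% and 17.8% after thinning. In Alx-high mesenchyme, where 8.88% of 10771 genes were called, 2 of 3 members were, both lower: *Rspo1* at 0.595 [0.506, 0.699] and *Rspo3* at 0.478 [0.308, 0.734] (59 and 37 UMIs). In Foxc-high mesenchyme, where 12.4% of 9642 genes were called, 1 of 3 was, *Rspo3* with 17 and 14 UMIs at 0.568 [0.259, 1.22], and *Rspo1* was at 0.868 [0.717, 1.05].

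The makeup of the mesenchyme differed between the libraries, and its part in these values was not tested. In a joint clustering without Wnt pathway genes, the largest mesenchyme-like cluster, led by *Col3a1*, held 326 and 369 cells, the next 74 and 273, the third 30 and 117, and a cluster of shallow cells (median 9967 UMIs) 64 and 13. Within the largest, *Rspo3* was at 0.526 [0.341, 0.797] (74 and 35 UMIs), close to its ratio over all mesenchyme-like cells, and *Rspo1* at 0.885 [0.787, 0.996]. In the next cluster *Rspo3* was at 1.11 [0.467, 3.02] on 7 and 26 UMIs, so its lower level was not seen there, and *Rspo1* was at 0.666 [0.449, 1.0]. In the third *Rspo1* was at 1.17 [0.770, 1.83], and in the shallow cells at 0.583 [0.183, 1.44] on 59 and 5 UMIs. The clusters thus did not share 1 direction, and the smaller ones rest on fewer UMIs. The level of *Rspo1* also differed between clusters, at 91.7 and 81.2 CPM in the largest and 31.0 and 20.6 CPM in the next. It was 58.8 and 68.7 CPM in the third and 82.8 and 48.3 CPM in the shallow cells.

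**Figure D3:**
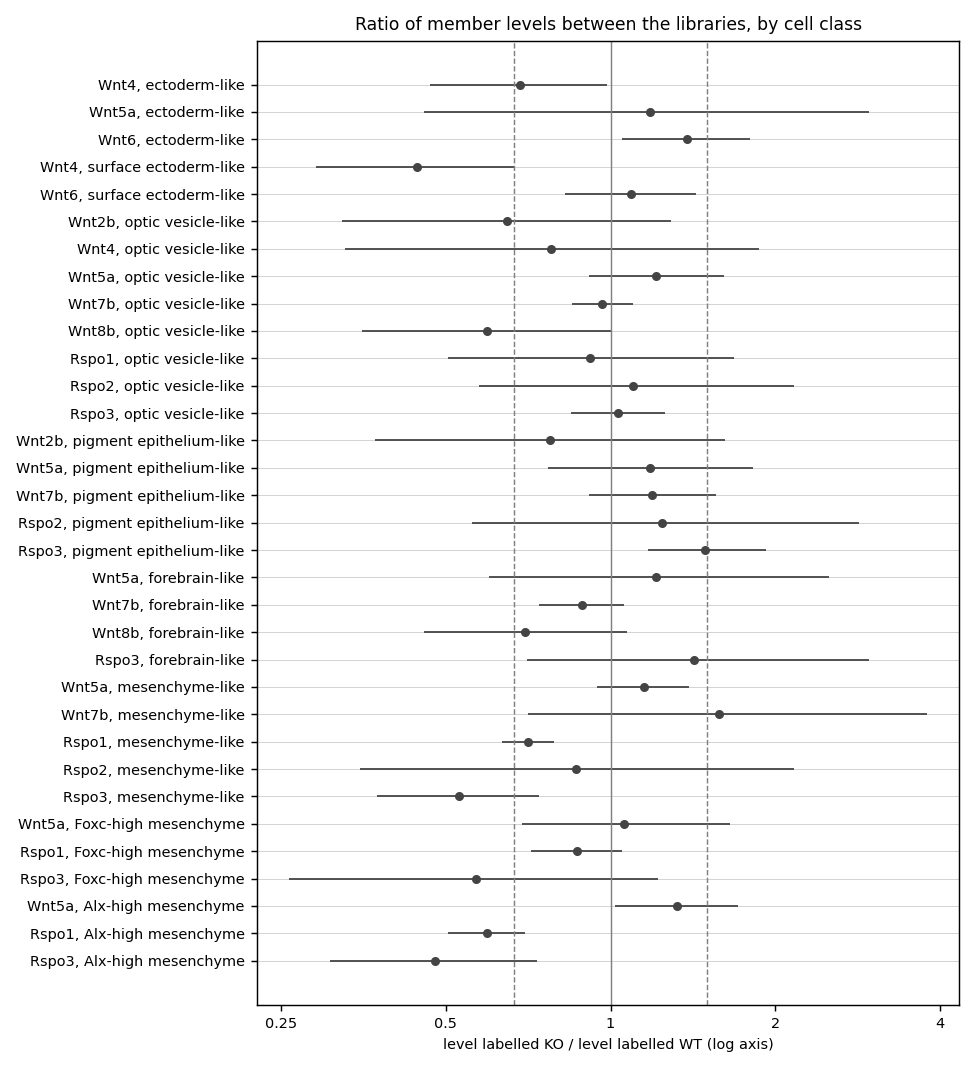
Ratio of the level in the library labelled KO to that in the library labelled WT for each member with at least 20 UMIs in a class (33 ratios in 8 classes, log axis; neural retina-like, optic stalk-like and endothelium-like cells are left out), with exact 95% intervals; dashed lines mark 1.5-fold and the solid line equal levels. The interval leaves out 1 for 9 of the 33 ratios, 8 are past 1.5-fold, and 4 meet both, *Wnt4* in SE-like cells, *Rspo3* in mesenchyme-like cells, and *Rspo1* and *Rspo3* in Alx-high mesenchyme. Some classes lie within others, so the same UMIs can enter more than 1 ratio and these counts are not independent. The text gives the share of all genes past 1.5-fold in each class. No such share was computed for the intervals or for both limits together.

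The rest of the pathway was read from lists of 13 other ligands, 2 secretion genes, 15 receptors, 5 R-spondin receptors and ligases, 15 intracellular components, 12 feedback targets and 12 secreted antagonists. Among the other ligands *Wnt5b* was the most abundant, with 960 and 1370 UMIs in all kept cells, and in ectoderm-like cells it was at 1.14 [0.610, 2.11]. *Wnt9b*, a ligand of facial ectoderm, was the only one of 3 other ligands counted in ectoderm-like cells to be called, at 10 and 16 UMIs (2.26 [0.964, 5.57] times higher in the library labelled KO). Of all genes 18.3% were called there. *Wls*, which carries lipid-modified Wnt proteins to the cell surface, was at 169 and 137 CPM in ectoderm-like cells and 89.7 and 97.4 CPM in mesenchyme-like cells, and was called in neither. *Porcn*, which adds the lipid, was called in forebrain-like cells on 10 and 20 UMIs (1.65 [0.738, 3.95]). It was 1 of 2 secretion genes counted there, where 9.91% of all genes were called.

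Of 15 receptors counted in optic vesicle-like cells and 11 in forebrain-like cells 0 were called, where 5.98% and 9.91% of all genes were. Counts this small cannot set receptors apart from those shares. Of 14 in mesenchyme-like cells 2 were lower in the library labelled KO, where 7.28% of all genes were called. These were *Fzd5* at 0.606 [0.271, 1.32] and *Fzd8* at 0.653 [0.381, 1.11]. In ectoderm-like cells 2 of 8 were called, close to the 18.3% of all genes called there. *Fzd2*, the receptor with the most UMIs in all cells, was higher, with 58 and 70 UMIs (51.1 and 87.2 CPM, ratio 1.70 [1.19, 2.46]), and *Ror1* was lower at 0.665 [0.248, 1.63] on 17 and 8 UMIs. *Lgr4*, the most abundant R-spondin receptor, was at 0.813 [0.624, 1.06] in mesenchyme-like cells. *Znrf3*, the ligase that R-spondins remove, was lower in forebrain-like cells (31 and 17 UMIs, 0.453 [0.235, 0.845]). It was 1 of 2 genes of its list counted there, where 9.91% of all genes were called.

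Of the intracellular components counted, 0 of 15 in optic vesicle-like cells and 0 of 15 in mesenchyme-like cells were called, where 5.98% and 7.28% of all genes were. *Csnk1a1*, a kinase of the β-catenin destruction complex, was the most abundant component. In forebrain-like cells 2 of 15 were lower and 1 was higher, where 9.91% of all genes were called. *Tcf7l2*, a transcription factor of the pathway, was lower (263 and 180 UMIs, 0.566 [0.465, 0.686]), as was *Gsk3a*, another kinase of that complex (124 and 94 UMIs, 0.626 [0.474, 0.826]). *Dvl3*, which relays the signal from Frizzled, was higher (9 and 30 UMIs, 2.75 [1.27, 6.60]). In ectoderm-like cells *Dvl3* was also higher, the only 1 called of 13 counted, at 2.02 [0.969, 4.32] on 14 and 20 UMIs. Of 3 secreted antagonists counted in ectoderm-like cells 2 were called, where 18.3% of all genes were. *Sfrp2* (588 and 172 UMIs, 0.413 [0.347, 0.490]) and *Dkk3* (101 and 39 UMIs, 0.545 [0.367, 0.796]) were lower. *Sfrp2* was high in LP-like cells, at 917 and 406 CPM. *Dkk3* was high there under the WT label alone, at 129 and 33.0 CPM, against 39.4 and 66.7 CPM in SE-like cells. In SE-like cells the direction between the libraries was the other, at 1.33 [0.806, 2.21] for *Sfrp2* and 1.70 [0.914, 3.21] for *Dkk3*. Of 3 antagonists counted there 2 were called, *Sfrp1* and *Dkk3*, both higher, where 20.8% of all genes were called. *Wif1* was lower in optic vesicle-like cells at 0.615 [0.418, 0.902], and *Dkk1* was higher in mesenchyme-like cells at 2.55 [1.64, 4.09] and lower in forebrain-like cells at 0.590 [0.283, 1.20]. These were the only antagonists called of 8, 7 and 5 counted in those classes, where 5.98%, 7.28% and 9.91% of all genes were called.

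Feedback targets, genes that β-catenin signalling is known to raise, were the list with the lowest median ratio in mesenchyme-like cells of the library labelled KO. Of 9 counted 3 were lower and 1 higher, where 3.58% and 3.71% of all genes were, and their median ratio was 0.721 where that of all genes was 1.0. *Axin2*, which feeds back on the destruction complex, had 315 and 256 UMIs (36.1 and 23.2 CPM, ratio 0.644 [0.544, 0.762]). *Sp5*, a transcription factor that dampens Wnt targets, had 93 and 37 UMIs (10.7 and 3.36 CPM, ratio 0.315 [0.209, 0.466]). *Nkd2*, an inhibitor of Dishevelled, had 157 and 130 UMIs (ratio 0.656 [0.516, 0.833]). The exception was *Lgr5*, an R-spondin receptor, with 6 and 25 UMIs (3.30 [1.32, 9.84]). *Lgr5* and *Znrf3* stand in this list and in that of the R-spondin receptors. *Nkd1*, the most abundant of the list, was at 0.721 [0.631, 0.823], *Lef1* at 0.695 [0.577, 0.836] and *Tcf7* at 0.883 [0.616, 1.27].

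These targets lay lower in the same class as *Rspo1* and *Rspo3*, and the part of the makeup of the mesenchyme in their ratios was not tested. In Alx-high mesenchyme 4 of 8 counted were lower and 0 higher (median 0.679; 3.98% of all genes were lower), and in Foxc-high mesenchyme 3 of 8 were lower and 0 higher (median 0.698; 6.13% of all genes were lower), with *Nkd2* at 1.01 [0.622, 1.67] there. *Sp5* was the lowest in both, at 0.279 [0.156, 0.479] in Alx-high and 0.248 [0.102, 0.550] in Foxc-high mesenchyme. Within the largest mesenchyme-like cluster *Axin2* was at 0.709 [0.583, 0.861], *Sp5* at 0.599 [0.401, 0.882], *Nkd2* at 0.808 [0.626, 1.04], *Lef1* at 0.731 [0.588, 0.907] and *Nkd1* at 0.897 [0.776, 1.04]. In the next, the third and the shallow cluster *Axin2* was at 0.836 [0.528, 1.36], 1.18 [0.538, 2.93] and 1.38 [0.468, 3.36], and *Nkd1* at 1.10 [0.697, 1.81], 1.42 [0.758, 2.88] and 1.18 [0.445, 2.65]. In the same order *Lef1* was at 1.04 [0.642, 1.76], 0.523 [0.243, 1.19] and 0.983 [0.251, 2.81], and *Nkd2* in the next cluster was at 0.824 [0.427, 1.69]. All of these intervals in the smaller clusters hold 1, and the ratios lie on both sides of it. The part of R-spondin levels in these values was not tested. In optic vesicle-like cells 0 of 9 counted were called (median 0.923). In forebrain-like cells 2 of 8 were (median 1.05), *Tcf7* at 0.551 [0.221, 1.31] and *Znrf3*, both lower. In ectoderm-like cells 1 of 3 was (median 0.869), *Lef1* with 17 and 7 UMIs at 0.582 [0.204, 1.48]. Of all genes 5.98%, 9.91% and 18.3% were called in these classes. *Nkd1* in forebrain-like cells was higher by less than 1.5-fold (97 and 173 UMIs, 33.9 and 49.9 CPM). For neural crest-like cells no share of all genes was computed. There *Axin2* had 20 and 6 UMIs (31.8 and 9.32 CPM), *Nkd1* 6 and 14 UMIs, and *Rspo1* 0 and 6 UMIs.

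**Figure D4:**
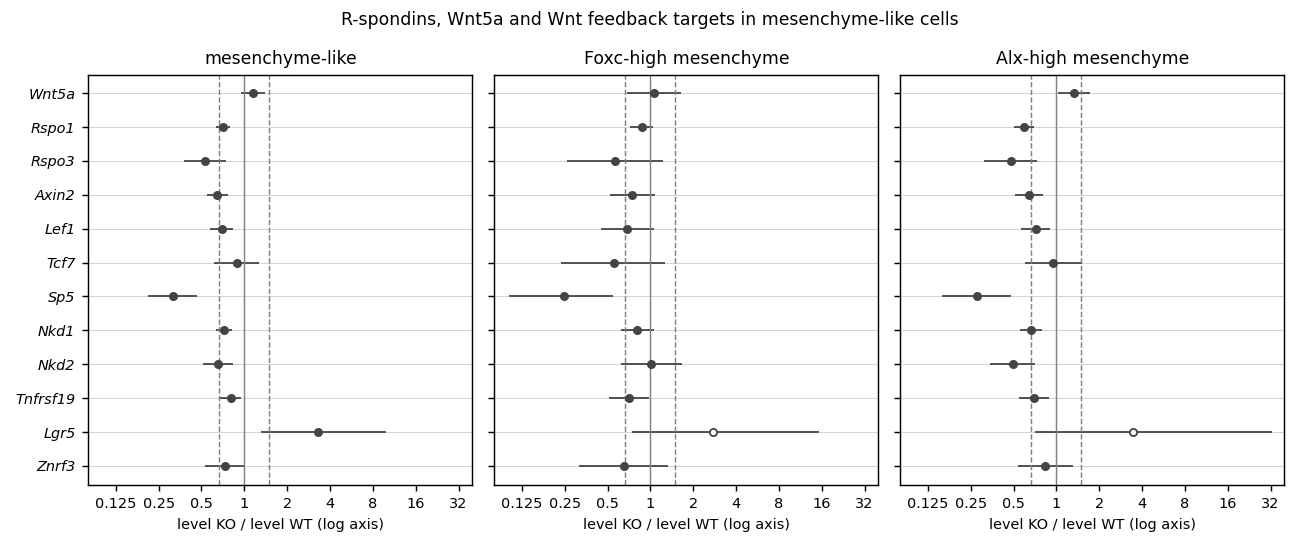
Ratio of the level in the library labelled KO to that in the library labelled WT (log axis, exact 95% intervals) for *Wnt5a*, *Rspo1*, *Rspo3* and 9 feedback targets in all mesenchyme-like cells, Foxc-high mesenchyme and Alx-high mesenchyme; open points have fewer than 20 UMIs and dashed lines mark 1.5-fold. *Sp5* lies farthest to the left in all 3 panels, and *Lgr5* lies farthest to the right.

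Genes whose levels followed those of a member most closely were sought over 24 points, 12 classes in each of 2 libraries, by Pearson's correlation of log2(CPM + 1) among genes with at least 100 UMIs. For *Wnt6* they were *Trp63* (0.982), *Fermt1* (0.941) and *Sp6* (0.918), and for *Wnt4* *Trp63* (0.947), *Fermt1* (0.931) and *Barx2* (0.914). *Trp63* is a marker that placed cells in the SE-like class. *Wnt2b* followed *Kcnj3* (0.944), *Dazl* (0.864) and *Wif1* (0.860), *Wnt7b* followed *Mir124-2hg* (0.962), the gate marker *Lhx2* (0.95) and *Gm27197* (0.942), and *Wnt8b* followed the gate marker *Fezf1* (0.938), *Rfx4* (0.896) and *Sox21* (0.888). For *Rspo1* they were *E330013P04Rik* (0.963), *Prss35* (0.960) and *Lox* (0.956), for *Wnt5a* *Ephb3* (0.897), *Plekhh2* (0.896) and *Kctd1* (0.894), for *Rspo2* *Crispld2* (0.908), *Mgll* (0.814) and *Postn* (0.797), and for *Rspo3* *Tmem126b* (0.823), *Fzd4* (0.811) and *Bves* (0.798). *Wnt3*, with 6 and 3 UMIs in all, gave *Cxcl14* (0.737), *Clstn3* (0.704) and *Cpped1* (0.702), which cannot be interpreted. The points share libraries and depth, and the choice of genes is loose: 8 of these 30 were chosen again from the library labelled WT alone and 6 by Spearman's correlation.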

How the data were processed

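UMI counts per gene and cell were made by the authors with Cell Ranger on mm10 (GRCm38) and deposited as whole-number counts for each library; per the study's methods Cell Ranger aggr joined the libraries, a step that can drop reads of the deeper one. Cells were kept if they had 1500 to 8000 genes and no more than 5% of UMIs from mitochondrial genes, as the methods' limit was read. From the deposited counts a marker score was computed for each cell and class. A cell joined the class of the highest score if that was at least 0.2 and 0.1 above the next. These limits were set after the data were seen. Levels are class sums of UMIs per 1000000 (CPM). A count of 0 is given the upper limit of 3 counts. Ratios were computed on the whole gene table and checked on simulated Poisson counts. The intervals assume the same model, so that check does not cover spread between cells or embryos. The members and lists were chosen with earlier results of these data known. The text names all members in every class that bears on them, the 3 genes most like each, and of each list the gene with the most UMIs and those past 1.5-fold in ectoderm-like, optic vesicle-like, forebrain-like or mesenchyme-like cells. *Wnt5a*, *Wnt7b* and *Rspo3* overlap exons of *Gm2670*, *AU022754* and *Gm48159* on the other strand (GENCODE M21). Clusters used Seurat 5.3.0 (40 principal components, resolution 0.6, joint, without Wnt pathway genes), and doublets Scrublet in scanpy 1.11.5 (expected rate 0.05, score limit 0.25). Python 3.11.15, numpy 2.4.6, scipy 1.17.1, pandas 2.3.3 and R 4.3.3 were used. The alternatives changed the cell filter, the gate, the doublets, the scaling, the depth, the fold limit and the UMI minimum. The genes that lead some clusters are not reported here.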

Additional observations from a re-analysis of the deposited data

How the results depend on the processing

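The highest class of a member was the one reported for 20 of 20 pairs of member and library without the mitochondrial and upper gene limits, without doublets and with globin and mitochondrial genes left out of totals, for 19 with a stricter gate (*Wnt7b*, then highest in optic stalk-like cells under the KO label) and with the mean of scaled cells, for 17 with cells thinned to 8000 UMIs, and for 14 of the 15 pairs whose class exists among clusters. The exceptions other than *Wnt7b* were *Rspo2* and *Wnt3*. The clusters held no optic stalk-like, Foxc-high or Alx-high class. The next class of *Wnt2b*, *Wnt7b* and *Rspo3* was thus missing among clusters, and their highest class was not compared with it there. Of 233 ratios recomputed for members with the alternatives, 229 were counted as unchanged, as they lay inside the counting interval of the reported ratio. That is a loose limit, as some intervals are wide (*Wnt2b* in optic vesicle-like cells, 0.323 to 1.29). A ratio that was not called could also cross 1 and count as unchanged. *Rspo3* in forebrain-like cells, reported at 1.42, was at 0.740 in the forebrain-like cluster. Another 3 ratios moved (*Wnt4* and *Wnt6* in SE-like cells with clusters, *Wnt8b* in optic vesicle-like cells when thinned, to 0.241). The last 1 reversed (*Wnt7b* in mesenchyme-like cells, 0.805 without doublets). Counts of called members are small and changed often. In ectoderm-like cells the count went from 0 to 1 without the mitochondrial and upper gene limits, with clusters, with thinning and with a minimum of 10 UMIs. In optic vesicle-like cells it went from 2 to 0 without the limits, with clusters, with thinning and with a fold limit of 2, and to 1 with the mean of scaled cells and with a minimum of 50 UMIs. In forebrain-like cells it went from 0 to 1 with a minimum of 10 UMIs. In mesenchyme-like cells it went from 2 to 1 with clusters, without doublets, with thinning and with a minimum of 50 UMIs, and to 0 with a fold limit of 2. The minimum of 20 UMIs was also applied to thinned sums, so a member could leave the count for lack of UMIs. *Wnt8b* in optic vesicle-like cells, at 0.241 when thinned, was past 1.5-fold but was not counted. The cause of the other changes was not tested. Thinning left out 0 and 99 cells. No paired analysis was possible because each genotype has 1 library, and none could be left out. Depth limits the small classes, as 0 UMIs allow up to 5.09 and 9.91 CPM in LP-like and 6.22 and 7.15 CPM in SE-like cells.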

Other observations

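*Wnt2*, which is not among the 10 genes and was picked out after its values were seen, was another ligand found mainly in ectoderm-like cells. These held 44 of its 54 UMIs under the WT label and 32 of 37 under the KO label (38.8 CPM [28.2, 52.1] and 39.8 CPM [27.3, 56.2]). In SE-like cells it had 24 and 31 UMIs (49.7 and 73.9 CPM, ratio 1.49 [0.844, 2.65]). In LP-like cells it had 18 UMIs in 28 cells of the library labelled WT (30.6 CPM [18.1, 48.3]) and 1 UMI in 15 cells of the library labelled KO (3.30 CPM [0.0837, 18.4]), a ratio of 0.108 [0.00259, 0.685]. The SE-like level was 1.63 [0.846, 3.18] times the LP-like one under the WT label and 22.4 [3.73, 911] times under the KO label. No replicate checks the difference in LP-like cells, and no share of all genes called was computed for that class. Sub-clustering gave 31 LP-like cells under the KO label in place of 15, and the *Wnt2* ratio was not computed with that division.

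The 5 ectoderm-like cells of the library labelled KO that fell between LP-like and SE-like held 8 UMIs of *Wnt4* and 7 of *Wnt6* (98.8 and 86.4 CPM), against 1 and 0 UMIs in 2 such cells of the library labelled WT. Of the UMIs under the KO label, 1 cell held 4 of *Wnt4* and 6 of *Wnt6*, so these levels rest largely on that cell.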
